A study of Rattus norvegicus with 15 samples.

Results

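The RNAs recovered with an antibody to hnRNP A2 from oligodendrocytes treated with amyloid-β were compared with the total RNA of cells given the same treatment. The comparison holds 6 of the 15 libraries of the series, chosen by their titles: 3 of the hnRNP A2 immunoprecipitation (IP) and 3 of input, both numbered 2, 3 and 4 and paired by that number. All were made from primary oligodendrocytes of newborn Sprague-Dawley rats, obtained as precursors from mixed glial cultures of the forebrain cortex and kept for 3 days in a defined maturation medium. Both groups received oligomeric amyloid-β, whose dose and time on the cells the sources used here do not give. The same IP and input from untreated control cells (3 libraries each) and 3 libraries of an IP with IgG serve below as points of reference. Per the labels each IgG library pools both treatments, although the names of their files point to amyloid-β alone.

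Oligodendrocytes wrap axons in myelin, and they carry some messenger RNAs, such as that of myelin basic protein, along their processes before translating them near the membrane. The protein hnRNP A2 binds RNA and takes part in this transport: it recognises a short response element in certain messenger RNAs and joins them in transport granules, and it is abundant in the nucleus as well. An IP of the protein followed by sequencing shows which RNAs are over-represented beside the protein relative to the whole cell, while the IgG IP shows what the procedure recovers without that antibody. The deposited tables pair no gene identifier with a name, and none of the 30560 identifiers could be matched to a name in the RefSeq table used here (assembly GRCr8). Genes are therefore described by level and by group, only 4 are singled out, by identifier, and neither the labelled cell type nor the myelin genes were checked here.

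Reads assigned to genes numbered 21300518, 25751522 and 19935932 in amyloid-β input replicates 2, 3 and 4, and 31610443, 33168494 and 28056346 in the IP replicates of those numbers. The IP libraries were thus the deeper ones, and a count of 0 allowed at most 0.0928 CPM (counts scaled to a common library total) there and at most 0.180 CPM in input, for counting error only. The series calls the replicates biological, and the libraries of a group differed from each other by more than sampling noise. Reads aligned to 1 place but outside annotated genes made up 22.0%, 19.6% and 26.0% of uniquely aligned reads in the IP and 9.64%, 8.46% and 11.2% in input. Reads aligned to several places took 28.4%, 15.5% and 13.9% of aligned records in the IP against 51.3%, 53.9% and 59.3% in input. These shares moved with the comparison in every pair; their part in the gene values was not tested, and 3 pairs allow no exact p below 0.25.

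A large share of genes differed between the hnRNP A2 IP and input. Of 14618 genes tested, 2838 were higher in the IP than in input (19.4%) and 2905 were lower (19.9%), 5743 in all (39.3%), by edgeR's quasi-likelihood test with the pair number as a term and a Benjamini-Hochberg adjusted p under 0.05. The median change of the higher genes was 2.52-fold and that of the lower genes 2.56-fold, with a median standard error (SE) of 0.29 on the log2 scale in both. Of the higher genes 2258 changed by more than 2-fold, and of the lower genes 2319. In 2 of the higher genes every input library had 0 counts; set to the bound that 3 counts per library give, they left the median log2 fold change at 1.33. A test against a minimum change of 2-fold called 568 higher and 704 lower.

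**Figure D1:**
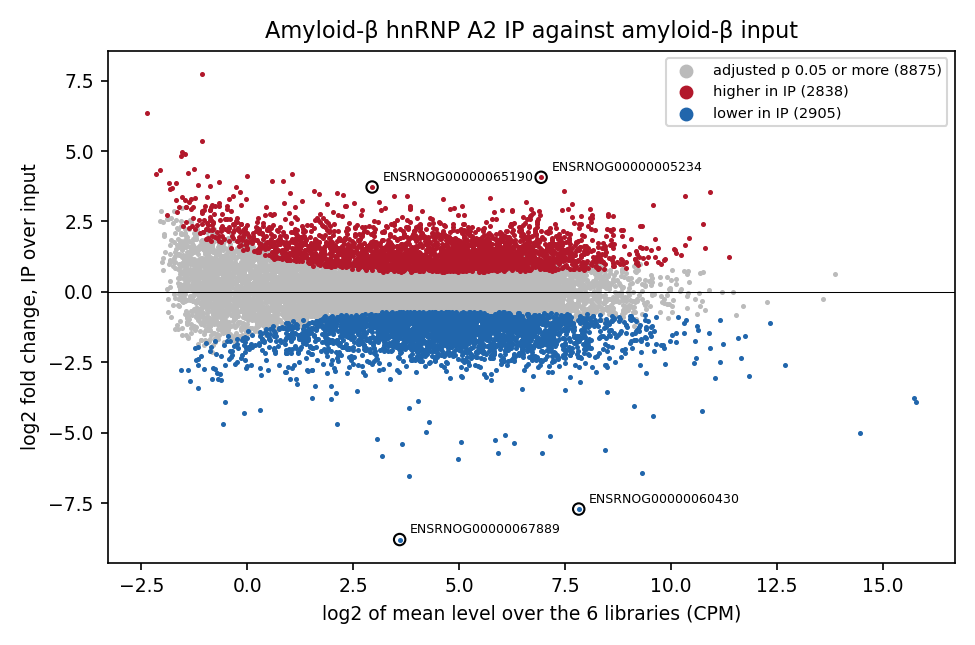
Each point is 1 of the 14618 genes tested: its mean level over the 6 amyloid-β libraries (log2 CPM, horizontal) against its log2 fold change of IP over input (vertical). The 2838 higher and 2905 lower genes are coloured, the 4 identifiers named in the text are circled, and losses at moderate and high levels reach farther from 0 than gains.

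Values are shares of a scaled library, so a lower gene took a smaller share and need not have had less RNA. The samples are bulk, so the values do not show from which cells of the culture an RNA was recovered. The scaling by TMM, which assumes that most genes do not change, set the median gene at a log2 fold change of 0.02. With library sizes alone that median moved to 0.50, and 4983 genes were higher and 1494 lower. Under that scaling all 5743 genes kept their sign, the 2838 higher genes all kept the call, and 1494 of the 2905 lower genes did. The split between higher and lower genes thus depends on the scaling, and directions are given relative to the median gene.

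Over all 14618 genes tested, 64.6% had 1 direction in the 3 pairs. Every IP level lay above every input level for 3676 genes (25.1%) and below for 3496 (23.9%), 7172 genes in all (49.1%). The fold changes of pairs 2 and 4 correlated at r = 0.82 across the 14618 genes, those of pairs 3 and 4 at r = 0.70 and those of pairs 2 and 3 at r = 0.61; the points share libraries and genes are not independent replicates.

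Pair 3 stood somewhat apart, and input varied more than the IP. The median SD of a gene's log2 level was 0.46 over the 3 input libraries and 0.26 over the 3 IP libraries. Of the 5743 genes called, pair 3 was farthest from the mean of the pairs in 3055, pair 2 in 1630 and pair 4 in 1058. Without pair 4 the count fell to 2378 (1071 higher, 1307 lower), without pair 2 it was 4316, and without pair 3 it rose to 8163. No gene among the 5743 that could be tested without a given pair changed sign, though they had been picked with all pairs included.

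For 8875 genes no difference passed the test, and this does not show that they were recovered in proportion. For 2891 of them, 32.6%, the 95% confidence interval excluded changes of 2-fold or more in both directions. For the rest, changes of that size were not excluded.

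The largest gains and losses show what the comparison separates. Genes were taken by the size of the fold change among those past the threshold without overlap and with at least 10 CPM in the higher group, 1958 higher and 2211 lower. ENSRNOG00000005234 had 14.2, 12.4 and 14.1 CPM in amyloid-β input replicates 2, 3 and 4. In the IP replicates of those numbers it had 191, 215 and 288 CPM. The groups lay far apart, and the lowest IP library was above the highest input library. The log2 fold change was 4.07 (SE 0.31, edgeR adjusted p = 0.000136), a 16.8-fold gain, and it was 3.81, 4.06 and 4.32 in the pairs.

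ENSRNOG00000065190 was rare in input, at 1.44, 0.981 and 0.722 CPM from 25, 22 and 12 counts. It reached 8.88, 16.4 and 17.8 CPM in the IP, with replicate 2 the lowest and no overlap. Its log2 fold change was 3.72 (SE 0.40, edgeR adjusted p = 0.000424), a 13.2-fold gain, and it was 2.63, 3.92 and 4.47 in the pairs.

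Neither of these gains set the hnRNP A2 IP apart from the IgG IP. ENSRNOG00000005234 had 115, 299 and 261 CPM in IgG replicates 2, 3 and 4, the first from 12 counts, which overlaps the hnRNP A2 libraries. Its level with hnRNP A2 over that with IgG was -0.07 on the log2 scale, with an SE of 0.26 (edgeR adjusted p = 0.892). ENSRNOG00000065190 had 19.3 and 10.1 CPM in IgG replicates 3 and 4 and 0 counts in replicate 2, where the depth allowed up to 28.6 CPM. Its log2 fold change over IgG was 0.16 (SE 0.34, edgeR adjusted p = 0.787). With either antibody, both identifiers were far above input in replicates 3 and 4.

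Among genes called with at least 10 CPM in the higher group, 38 fell by more than 8-fold and 16 rose by as much. Without that minimum level the order was reversed: 56 fell and 73 rose by more than 8-fold. The largest gain was then 7.73 on the log2 scale. ENSRNOG00000067889 had 34.6, 9.81 and 28.0 CPM in input replicates 2, 3 and 4, and 1, 3 and 1 counts in the IP. Input replicate 3 was the lowest of the inputs and still far above each IP library. Scaled for depth, the summed input counts were 495 times those of the IP, with a 95% counting interval of 212 to 1527 that covers counting error only. This fall of -8.79 on the log2 scale had an SE of 0.54 and an edgeR adjusted p of 7.65e-05. The pair values were -8.41, -6.05 and -8.10, with a small count added to each library before taking logs. At IP counts this low that pulls them toward 0, so they are not on the scale of the fit. The fit gave -9.91 without pair 3 and -8.13 without pair 2. In IgG replicates 2, 3 and 4 ENSRNOG00000067889 had 0, 1 and 2 counts, too few for a test. At 0.215 and 0.963 CPM, IgG replicates 3 and 4 were nevertheless below every input library. Replicate 2, where 0 counts allowed up to 28.6 CPM, was too shallow to place.

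ENSRNOG00000060430 was abundant in input, at 713, 177 and 464 CPM, again with replicate 3 the lowest. The IP held 1.48, 2.38 and 1.86 CPM of it, from 58, 88 and 60 counts. The log2 fold change was -7.70, with an SE of 0.57 and an edgeR adjusted p of 0.000136. It was -8.78, -6.23 and -7.94 in the pairs and -8.44 without pair 3. IgG replicates 2, 3 and 4 had 28.6, 5.58 and 46.2 CPM, from 3, 26 and 96 counts, between the IP and input. Here the hnRNP A2 IP was also below IgG, by -3.27 on the log2 scale, with an SE of 0.42 (edgeR adjusted p = 1.79e-12). The gap was narrowest in replicate 3, at 2.38 CPM against 5.58 CPM in IgG, and IgG replicate 2 rests on 3 counts. The fit against IgG estimated a common spread for all genes, which makes its p-values small.

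**Figure D2:**
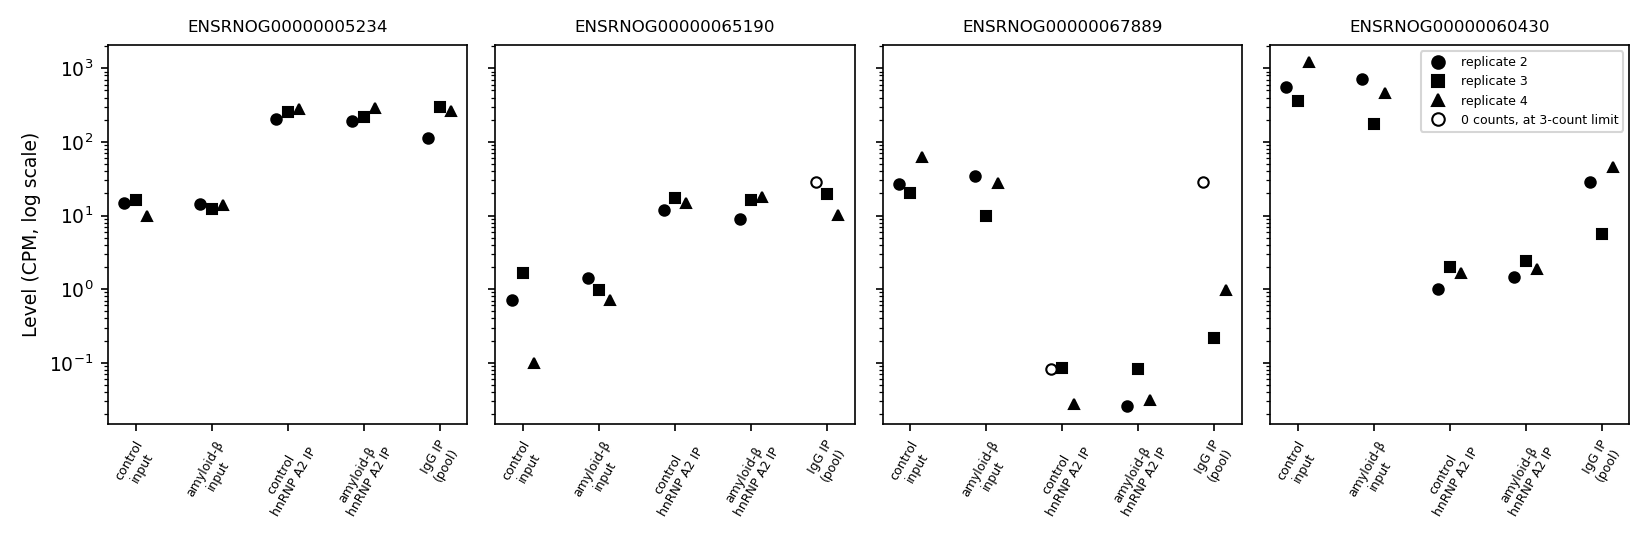
Level in CPM (log axis) of the 4 identifiers in each of the 15 libraries, by group, with the marker giving the replicate number and open markers a count of 0 drawn at the level that 3 counts would give. The 2 identifiers on the left are high in the hnRNP A2 libraries and in IgG replicates 3 and 4. The 2 on the right fall from input to the hnRNP A2 libraries and are below input in IgG replicates 3 and 4 as well. IgG replicate 2 is shallow.

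The deepest losses as a group included some of the most abundant RNAs of the input. The group of 33 genes whose mean log2 fold change over the amyloid-β and control cells was under -4 was picked for that value, so its fall from input to IP is no finding, and its shares are a description. Its share of gene counts was 26.4%, 14.3% and 24.8% in amyloid-β input replicates 2, 3 and 4 and 2.09%, 1.56% and 1.96% in the IP. The IgG libraries held 3.70%, 1.39% and 2.96%. In amyloid-β input 15 of the 33 genes were at 100 CPM or more and 7 at 1000 CPM or more, and the most abundant had 106647 CPM; the other 18 were under 100 CPM, down to 1.78 CPM. For scale, the 2 most abundant genes of each input library took 21.2%, 12.2% and 18.8% of its gene counts.

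The group at the other end, picked in the same way, had more genes and took a smaller share of input, but its share of the IP was of similar size. The 135 genes with a mean log2 fold change over both treatments above 2.5 had a median level of 1.29 CPM in amyloid-β input and 8.94 CPM in the IP, and 35 reached 100 CPM in the IP. They took 0.193%, 0.184% and 0.191% of gene counts in input and 1.90%, 2.10% and 2.32% in the IP. IgG held 1.43%, 2.59% and 1.69%, a range that spans the hnRNP A2 libraries.

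The loss of mass at the top of the input can be read from genes ranked in other libraries. The 10 genes with the highest mean level in control input, which is outside the comparison, took 29.98%, 17.4% and 28.9% of amyloid-β input and 5.02%, 6.47% and 7.04% of the amyloid-β IP. Of these 10 genes 7 were lower in the IP and 0 higher, with a median log2 fold change of -2.47. Of the first 100, 48 were lower and 3 higher. Ranked by control IP instead, 3 of the first 10 were higher and 3 lower, and 36 of the first 100 were higher and 15 lower, against 19.4% and 19.9% of all genes tested. In the first 100, each ranking thus held more genes called toward its own side, so neither alone shows how calls depend on level.

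Ranked by the mean of both kinds of control library, the calls were nearly balanced except at the extremes. Among 80 genes over 1000 CPM, 27 were lower (33.8%) and 12 higher, with a median log2 fold change of -0.31. With library sizes alone that median was 0.17, below the 0.50 of all genes. It was -0.63, 0.17 and -0.41 in pairs 2, 3 and 4, so pair 3 went the other way. Among 7011 genes from 10 to 100 CPM, 24.3% were lower and 21.2% higher. Under 1 CPM, 8.56% of 1483 genes were higher and 4.32% lower, and the median half-width of the confidence interval was 1.498 on the log2 scale, against 0.61 from 10 to 100 CPM.

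**Figure D3:**
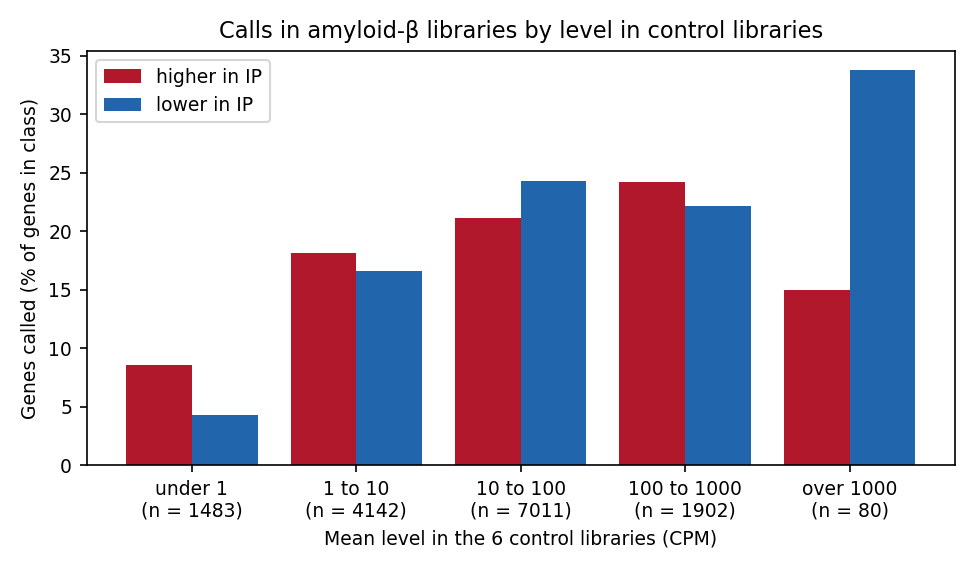
Share of genes called higher (red) or lower (blue) in the amyloid-β IP than in input, in % of the genes of each class (vertical), by the mean level over the 6 control libraries in CPM (horizontal, n under each class). The classes from 1 to 1000 CPM are close to balanced, and the class over 1000 CPM has 27 lower and 12 higher genes.

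Untreated cells gave a separate set of libraries for the same question. In control cells 3977 genes were higher in the IP than in input (27.2%) and 3787 lower (25.9%) by the same edgeR test; that fit estimated a common spread for all genes, and its list is used here only to choose genes. Of the 3947 such higher genes tested with amyloid-β, 2638 were higher (66.8%, against 19.4% of all genes) and 0 lower. Of the 3769 lower genes, 2618 were lower (69.5%, against 19.9%) and 0 higher. In all 3 amyloid-β pairs together, 3246 of the 3947 genes were positive and 3198 of the 3769 negative. For comparison, of 6637 genes not called in control cells, 1459 were positive and 1415 negative in all 3 pairs. The libraries are separate, but the numbers pair them across treatments, so the cultures may be shared.

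By mass, the genes higher in control cells took 12.02%, 14.5% and 11.7% of amyloid-β input replicates 2, 3 and 4 and 39.6%, 36.2% and 39.9% of the amyloid-β IP. The genes lower in control cells took 61.1%, 55.0% and 60.6% of input and 23.5%, 23.8% and 21.8% of the IP. No IP library reached the range of input in either list. The IgG libraries held 33.3%, 37.4% and 35.2% in the first list and 33.9%, 21.7% and 27.0% in the second, near the hnRNP A2 libraries in both and far from input.

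**Figure D4:**
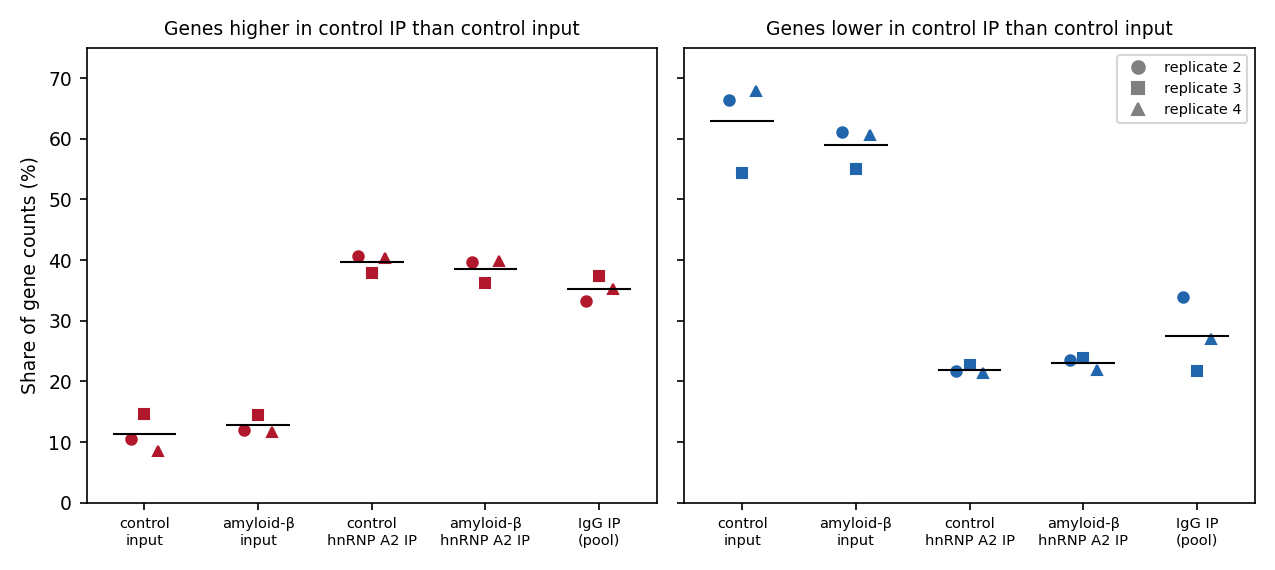
Share of gene counts in % (vertical) taken in each of the 15 libraries by the genes higher (left, red) and lower (right, blue) in control IP than in control input, with a line at each group's mean and the marker giving the replicate. The control libraries chose the lists; the amyloid-β IP lies at 36.2% to 39.9% on the left against 11.7% to 14.5% in its input, and the IgG libraries lie near the IP.

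Fewer genes were called against IgG than against input, and the count was less stable. Against IgG, 2910 of 13924 genes tested with edgeR and the pair number as a term differed in the amyloid-β IP (20.9%), 1571 higher (11.3%) and 1339 lower (9.62%). That fit, too, estimated a common spread for all genes, which makes its p-values small. Without that term the count was 319, without replicate 4 it was 278 and without replicate 3 2009, and DESeq2 called 1557. IgG replicates 2, 3 and 4 held only 81463, 4096829 and 1895870 counts. Without replicate 2 the number of genes called was 3214. The comparisons with IgG and with input thus differ in depth, and shares of counts do not show how much RNA each antibody recovered. Of 3935 genes higher than input in control cells and tested here, 724 were higher than IgG (18.4%) and 334 lower (8.49%), with a median log2 fold change of 0.27; of all genes tested 11.3% were higher and 9.62% lower. Of 3690 genes lower than input in control cells, 293 were higher than IgG (7.94%) and 366 lower (9.92%), with a median of -0.06. The last of these shares is near that of all genes. Without the pair term 63 of the first list were higher than IgG and 61 lower, and without replicate 4 the numbers were 12 and 80.

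Whether amyloid-β shifted the recovery of a gene was asked by the difference of the IP-over-input changes of treated and control cells. None of 15303 genes passed in edgeR (0 genes, 0%), while 150 (0.98%) had an unadjusted p under 0.05. DESeq2 and voom called 0 too, and 186 and 335 genes had such a p. Without any true difference, a test whose p-values are exact gives a share of about 0.05. The edgeR share was below that, so the test was conservative and 0 calls are weak evidence of no difference. The fit had no term for an IP-over-input change shared by same-numbered pairs of treated and control cells. Whether this lowered the share was not tested. The lowest edgeR adjusted p was 1. The 95% confidence interval of the difference lay within 2-fold either way for 5441 genes, 35.6%, so for most genes a change of that size was not excluded. Over 14353 genes tested in both, the fold changes of treated and control cells correlated at Pearson r = 0.91 and Spearman rho = 0.91, a description across genes whose libraries share replicate numbers. The median absolute difference was 0.26 on the log2 scale, and 0 genes were called in both with opposite signs. The 4 identifiers followed the same pattern: in control cells their log2 fold changes were 4.19 and 4.14 for ENSRNOG00000005234 and ENSRNOG00000065190, and -9.70 and -8.70 for ENSRNOG00000067889 and ENSRNOG00000060430.

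**Figure D5:**
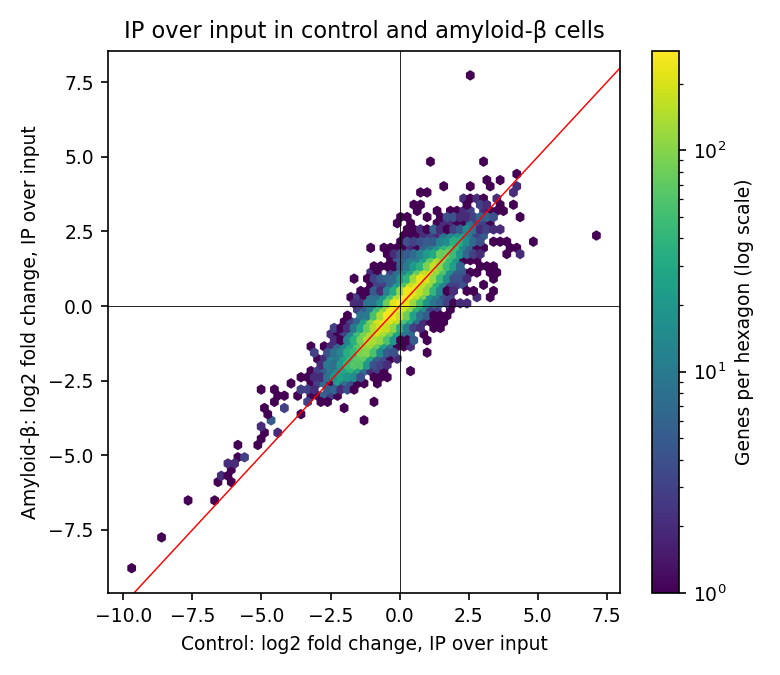
Log2 fold change of IP over input in control cells (horizontal) and amyloid-β-treated cells (vertical) for the 14353 genes tested in both, with colour giving the number of genes per hexagon on a log scale and the red line equality. Most genes lie along the line (r = 0.91). The deepest losses at the lower left lie above it, but no gene passed the test of the difference. For the 33 genes with a mean of both fold changes under -4, the median difference in replicate 2 was only 0.04.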

How the data were processed

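Per the labels' protocols, a strand-specific total RNA kit was started from 4 to 10 ng of RNA, with paired-end reads. The deposited values are raw counts of reads per gene identifier, not normalized by the authors. The submitters' processing notes list STAR 2.7.1, HTSeq, DESeq2 and R 4.2.2 without their roles. Build, annotation and strand setting: not given in the sources used here. Overlapping genes, antisense genes and near-identical copies may therefore share counts. The 5 summary rows of each file, which name no gene, entered neither library sizes nor tests.

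The tests used edgeR 4.0.16 in R 4.3.3 (TMM, default expression filter, quasi-likelihood F test, adjusted p under 0.05), fitted on the libraries compared; the difference between treatments was fitted on 12 libraries with a term for each pair. The filter left out 15942 of 30560 identifiers, 9174 of them at 0 in all 6 libraries. The SE is the log2 fold change divided by the square root of F. Levels are CPM scaled with TMM factors over all 15 libraries. Log2 fold changes of single pairs were differences in log2 CPM with a small count added to each library. The confidence level was 95%, and a count of 0 was taken to allow 3 counts. The scripts were run on simulated counts with known changes, which does not vouch for the p-values of the fits with a common spread.

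The pairing comes from the numbers in the titles. Deviations of same-numbered input and IP libraries from their group means correlated at 0.54, 0.15 and 0.29 for numbers 2, 3 and 4. Input replicate 4 and IP replicate 3 reached 0.30, above the same-numbered pairs 3 and 4, so only number 2 was clearly borne out. For IgG and the IP the values were 0.25, 0.28 and 0.16. There IgG replicate 3 and IP replicate 4 reached 0.17, above the same-numbered pair 4, so the pairing is weakly borne out there too.

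The rule for named genes took, per direction, the 2 largest fold changes past the threshold without overlap and with at least 10 CPM in the higher group; as written for named genes it took 12 per direction and members of gene lists, which identifiers without names do not allow. The comparison, lists and rules were chosen with earlier results of these data known. The alternatives tried were voom with quality weights (limma 3.58.1), DESeq2 1.42.0, other scalings and filters, a minimum fold, no pair term, 12 libraries in 1 fit, and leaving out libraries.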

Additional observations from a re-analysis of the deposited data

How the results depend on the processing

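The 4 identifiers kept their direction and their call in every alternative run on the comparison with input, those that left out a library included. The size of both losses moved by over 1.5 times without replicate 3, to log2 fold changes of -9.91 for ENSRNOG00000067889 and -8.44 for ENSRNOG00000060430, and that of the former without replicate 2, to -8.13. The replicate block changed the count of calls by less than 1.5 times: without it edgeR called 4981 genes (2376 higher, 2605 lower), of which 4844 of the 5743 kept the call and direction. With 12 libraries in 1 fit the count was 5982 without a block and 6897 with a block within each treatment. Voom called 8886 genes (4448 higher, 4438 lower). Library sizes alone gave 4983 higher and 1494 lower, and a minimum log2 fold change of 1 gave 1272 (568 and 704). DESeq2, DESeq2-type size factors and both other filters stayed within 1.5 times. Leaving out a pair or, in an alternative chosen after seeing the data, a single library with no block gave 2378 to 8163 genes, 1071 to 4030 higher and 1230 to 4133 lower; the lone library of the broken pair then adds nothing to the paired fit. In the paired fit without replicate 4 it was 2378 (1071 higher, 1307 lower). In the fit with no block, it was 2380 (1150 higher, 1230 lower) without IP replicate 4, 3220 (1594 and 1626) without IP replicate 3 and 3474 (1496 higher) without input replicate 4, and 1793 genes were higher without IP replicate 2.

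Against IgG, DESeq2 called 1557 genes (886 higher, 671 lower), a minimum log2 fold change of 1 left 215 (44 and 171), and no replicate block left 319 (151 and 168). Leaving out a replicate gave 278 to 3214 genes, 65 to 1662 higher and 213 to 1552 lower. The causes were not tested. The difference between treatments called 0 genes in every alternative, with 30 to 593 at an unadjusted p under 0.05. The alternatives that needed gene names (mitochondrial genes left out, counts over gene lists) were not run. In IgG replicate 2 a count of 0 allowed a level of up to 28.6 CPM, and without replicate 2 the IgG count was 3214.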

Other observations

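The fitted values of the deepest losses were smaller with amyloid-β, and no such difference passed a test. Of the 33 genes with a mean log2 fold change under -4 over both treatments, 33 had a smaller loss in treated than in control cells, with medians of -5.00 and -5.70. Choosing by the mean of both favours neither treatment only if their fold changes spread alike across genes, which was not checked. The difference was also noticed in these data. Between same-numbered pairs the median difference was 0.04, 1.24 and 0.79 for replicates 2, 3 and 4, and 17, 30 and 29 of the 33 genes had the smaller loss with amyloid-β, so replicate 2 showed almost none of it. The test of the difference passed for none of the 33 genes (lowest edgeR adjusted p = 1), and 1 had an unadjusted p under 0.05. The input share of the group was 37.4%, 20.4% and 34.1% of gene counts in control input replicates 2, 3 and 4 against 26.4%, 14.3% and 24.8% in amyloid-β input; it was lower with amyloid-β in each pair, by most in replicate 2, where the fold changes differed least. In the control IP the group took 1.67%, 1.5003% and 1.83%, against 2.09%, 1.56% and 1.96% in the amyloid-β IP. At the other end, 64 of the 135 genes with a mean log2 fold change above 2.5 were higher in treated than in control cells, with medians of 2.87 and 2.92.

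Few genes were seen on 1 side only. At least 1 count in each IP library and 0 in each input library were found for 357 genes. In 72 of these the mean IP level was above the one that 3 counts per input library would give. The reverse, counts in each input library and 0 in each IP library, was found for 12 genes, in libraries of which the IP were the deeper. With at least 10 counts in each library the numbers were 8 and 0. Those 8 genes reached 0.336 to 0.935 CPM in the IP, which was at least 2.07-fold to 5.76-fold higher than the level that 3 counts per input library would give. Counts in all 6 libraries were found for 15160 genes of 21386 with any count.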
